A study of Mus musculus with 8 samples.

Results

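Retinoid handling was described through 9 genes, chosen by symbol from the 21182 genes of the deposited expression table: Rbp4, Stra6, Crabp1, Crabp2, Rdh10, Dhrs3, Aldh1a2, Cyp26a1 and Rarg. All 9 symbols were found. RNA was sequenced from single mouse embryos of the C57BL/6 background at embryonic day E6.75, as 4 Control embryos and 4 embryos labelled as Tet1/2/3 triple knockout (TKO), a genotype meant to remove the TET enzymes, which oxidise methylated cytosine. The labels give the genotypes as "Control" and "Tet1/2/3 TKO" and the tissue as whole embryo. They name no Cre driver, litter, sex or dissection date, and both groups share strain and age. Values are taken as RPKM (reads scaled by gene length in kilobases and per 1000000 reads). Levels of different genes are set beside each other on that scale, though the gene lengths and read totals behind it were not stated.

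Retinol circulates bound to RBP4 and enters cells through the receptor STRA6. RDH10 oxidises retinol to retinal, DHRS3 reduces retinal back to retinol, and ALDH1A2 turns retinal into retinoic acid. CRABP1 and CRABP2 bind retinoic acid inside cells, RARG is one of its nuclear receptors, and CYP26A1 hydroxylates it for removal. In the mouse, retinoic acid synthesis in the embryo proper is known to begin in mesoderm during gastrulation, while CYP26A1 is known to keep parts of the early embryo free of retinoic acid.

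A direct repeat with a spacer of 5 bases is the classical element bound by retinoic acid receptors, and Cyp26a1 and the receptor gene Rarb are textbook targets. Each repeat unit was taken as AGTTCA or AGGTCA, with A or G allowed as its first letter, and pairs of any such units were searched on both strands in RefSeq promoter windows of 300 bases (250 before and 50 after each start, GRCm38.p6). Windows existed for 7 of the 9 genes, 14 windows in all, and Crabp2 and Rdh10 had none. Of these, 1 held the repeat with a spacer of 5 bases, that of Cyp26a1, against 0.0974% of all 32851 windows. With a spacer of 2 bases, 0 of the 14 held it, against 0.268% of all windows, and so few windows could not show a lower share. Among 42 windows of other retinoid pathway genes, 1 matched with the spacer of 5, that of Rarb, and among 9 windows of genes known to be induced by retinoic acid, 0 matched. The last list leaves out Cyp26a1 and Rarb, which were counted in the other lists. The 2 matches are shown because they are the only ones in these lists, with the repeat units in capitals, each read on the strand that carries the repeat:
Cyp26a1: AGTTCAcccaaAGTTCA
Rarb: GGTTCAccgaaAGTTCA
The Cyp26a1 match lies on the strand opposite the gene at chr19:37697776-37697792, from 32 to 16 bases before the start. The Rarb match lies on the strand of the gene (minus) at chr14:16575513-16575529, from 53 to 37 bases before the start. The 250 bases before the Cyp26a1 start (chr19:37697558-37697807, plus strand) are shown because that gene had the highest mean level of the 9, with the match in capitals as it reads on the gene's strand:
Cyp26a1 promoter: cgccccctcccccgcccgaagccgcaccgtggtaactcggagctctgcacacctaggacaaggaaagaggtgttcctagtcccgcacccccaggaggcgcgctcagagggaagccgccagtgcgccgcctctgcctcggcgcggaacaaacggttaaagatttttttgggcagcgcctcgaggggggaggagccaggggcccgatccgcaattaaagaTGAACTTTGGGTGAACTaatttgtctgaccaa
These matches are a description of the sequence, and no binding or methylation was measured. The member windows held 5 to 50 CpG sites, with a median of 10 against 7 over all windows. The count was highest in Aldh1a2, at 50.

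The read total behind each embryo was estimated from the steps of the smallest values as 12.38 to 16.42 M reads (M for 1000000) in Control and 9.90 to 18.96 M reads in TKO-labelled embryos. Of the targeted genes, Tet1 ranged from 4.93 to 5.76 RPKM among Control embryos and from 9.21 to 15.3 RPKM among TKO-labelled ones. Tet2 was at 0.444 to 0.850 and 0.598 to 0.993 RPKM, and Tet3 at 1.73 to 2.08 and 1.14 to 1.68 RPKM. The Tet1 values go against a loss of the transcript, and 1 value per gene does not show whether targeted exons are missing, so the embryos are called TKO-labelled throughout. Markers of maternal decidua, the uterine tissue around the embryo, were present in every library. Their summed level over 10 genes ranged from 3.90 to 569 RPKM in Control and from 20.9 to 458 RPKM in TKO-labelled embryos. In the model across all 10451 genes with at least 1 RPKM in at least 4 of the 8 embryos (limma with Benjamini-Hochberg adjustment), 1 gene, or 0.00957%, passed an adjusted p of 0.05, with higher values in TKO-labelled embryos. At an unadjusted p under 0.05 there were 1824.

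All 9 genes passed the filter on low values, Stra6 and Aldh1a2 with the minimum of 4 embryos. The genes were proposed with results of this contrast known, so their differences between the groups are given as a description, without a test. In 8 the log2 difference (TKO-labelled minus Control, on the log2(RPKM + 1) scale) was above 0, and its median was 0.34. Over all tested genes 66.5% were above 0, with a median of 0.09. In 1 of the 9, Crabp2, the values of the groups did not overlap, against 7.55% of all tested genes with TKO-labelled values above all Control values. Nothing is read from these counts.

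**Figure D1:**
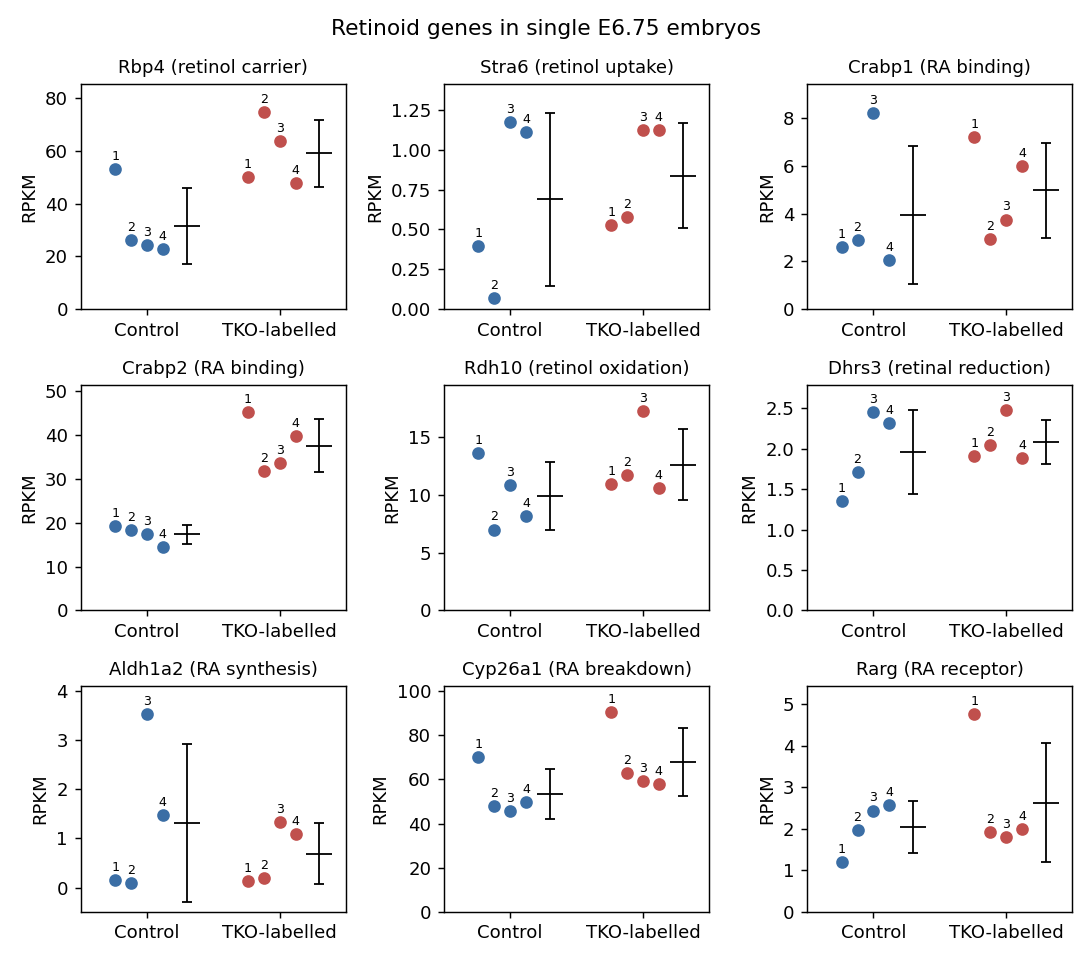
RPKM (vertical axes, each from its own scale) of the 9 retinoid genes in each embryo, with replicate numbers beside the points; the bar and whiskers give mean ± SD (n = 4). Crabp2 is the gene in which all TKO-labelled embryos (31.7 to 45.2 RPKM) lie above all Control embryos (14.4 to 19.2 RPKM), and Aldh1a2 is near 0 in 2 embryos of each group.

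Rbp4, the plasma carrier of retinol and a product of visceral endoderm at this stage, was at 52.9, 26.3, 24.4 and 22.7 RPKM in Control replicates 1 to 4. It was at 49.9, 74.7, 63.8 and 47.8 RPKM in TKO-labelled replicates 1 to 4. Control replicate 1 lay inside the TKO-labelled range, and the other 3 Control embryos lay below it. The means were 31.6 ± 14.3 and 59.1 ± 12.6 RPKM (SD, n = 4 each). The log2 difference of Rbp4 was 0.95 (95% confidence interval 0.39 to 1.50), 1.22 without Control replicate 1 and 0.82 without Control replicate 4. Visceral endoderm markers moved with it in part: the summed level of 9 genes was 1553 RPKM in Control replicate 1, 428 to 846 RPKM in the other Control embryos, and 947 to 1122 RPKM in TKO-labelled embryos. All 9 markers were above 1 RPKM in every embryo. Of the 9, 6 had a log2 difference above 0, as Rbp4 did, and 3 below, with a median of 0.31, and 0 had groups that did not overlap. The apolipoprotein genes Apoa1 and Apom and the endocytic receptor gene Cubn had differences of 0.62, 0.55 and 0.48. Afp, the fetal serum protein that defines this tissue, had the lowest, -0.25, and was at 39.6 to 101 RPKM in Control and at 49.4 to 68.4 RPKM in TKO-labelled embryos. Per 100 RPKM of these markers, Rbp4 stood at 3.41, 3.11, 5.69 and 4.31 in Control and at 5.21, 7.78, 5.69 and 5.05 in TKO-labelled embryos, and the ranges overlapped. The part of the visceral endoderm in the Rbp4 values was not tested further. In a whole embryo, fewer cells of a type and less RNA per cell cannot be told apart.

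Ttr encodes transthyretin, which holds the RBP4-retinol complex in plasma. It was at 249.6, 150.2, 66.5 and 95.2 RPKM in Control and at 136, 187, 226 and 120.4 RPKM in TKO-labelled embryos. The groups overlapped. The log2 difference was 0.38, with a 95% confidence interval of -0.40 to 1.17 and a limma adjusted p of 0.599. Leaving out Control replicate 1 gave 0.72, and without Control replicate 3 it was 0.09.

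Stra6, the membrane receptor that takes up retinol from RBP4, had the lowest Control mean of the 9. It was at 0.399, 0.0730, 1.17 and 1.11 RPKM in Control and at 0.526, 0.580, 1.12 and 1.12 RPKM in TKO-labelled embryos. The lowest value corresponds to an estimated 3.4 reads and the highest to 44.4. Replicates 3 and 4 of each group were above 1 RPKM and replicates 1 and 2 below it. The log2 difference was 0.17 (95% confidence interval -0.36 to 0.69), -0.03 without Control replicate 2 and 0.57 with a pseudocount of 0.1.

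Crabp2, the carrier that delivers retinoic acid to nuclear receptors, was the gene of the 9 with the largest log2 difference. It was at 19.2, 18.3, 17.4 and 14.4 RPKM in Control and at 45.2, 31.7, 33.7 and 39.7 RPKM in TKO-labelled embryos. The lowest TKO-labelled embryo lay well above the highest Control embryo. The mean was 2.17 times as high in TKO-labelled embryos, and the log2 difference of 1.07 (95% confidence interval 0.76 to 1.37) ranged from 0.98 to 1.14 over the 13 alternative analyses. Among the marker lists, epiblast genes were also higher in some TKO-labelled embryos, with a summed level over 7 genes of 445 to 634 RPKM in Control and of 479 to 903 RPKM in TKO-labelled embryos. All 7 had a log2 difference above 0, beside 66.5% of all tested genes, with a median of 0.43. In 1 of the 7, Fgf5, the groups did not overlap (21.5 to 35.2 and 36.9 to 47.9 RPKM), beside 7.55% of all tested genes. Pou5f1, the epiblast pluripotency factor, was at 10.8 to 19.0 and 15.3 to 57.3 RPKM. Per 100 RPKM of the epiblast markers, Crabp2 was at 2.48 to 4.31 in Control and 5.01 to 7.03 in TKO-labelled embryos, and these ranges did not overlap either. The largest part of the epiblast sum in each embryo was Dnmt3b, with 263 to 371 RPKM among Controls and 244 to 413 RPKM among TKO-labelled ones. Among the 7 genes, Dnmt3b had the lowest log2 difference (0.02) and Pou5f1 the highest (0.93). This scaling thus depends most on Dnmt3b, and a separation against each of the other markers was not tested. Per 100 RPKM of visceral endoderm markers the ranges were 1.23 to 4.07 and 3.00 to 4.73, and per 100 RPKM of parietal endoderm markers 8.07 to 20.8 and 6.45 to 29.7, both overlapping. The summed level of the 8 parietal endoderm markers was 88.2 to 178 RPKM in Control and 152 to 522 RPKM in TKO-labelled embryos. All 7 tested markers had a log2 difference above 0, with a median of 1.44, and in 7 of the 8 the groups overlapped, as for the laminin gene Lama1 (0.716 to 6.42 and 1.90 to 31.9 RPKM). Nid1, a basement membrane linker, was the exception, at 4.69 to 8.83 RPKM in Control and at 9.52, 25.0, 39.2 and 20.6 RPKM in TKO-labelled embryos. Among the TKO-labelled embryos, replicate 1 had the lowest parietal endoderm sum, at 152 RPKM, and the highest Crabp2 level. The part of the epiblast, endoderm or decidua in the Crabp2 values was not tested.

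Crabp1, the other intracellular carrier of retinoic acid, ranked the TKO-labelled embryos in the same order as Crabp2. It differed from Crabp2 in the order of the Control embryos, most in replicate 3. It was at 2.61, 2.89, 8.21 and 2.06 RPKM in Control and at 7.21, 2.94, 3.75 and 5.97 RPKM in TKO-labelled embryos. Control replicate 3 was the highest of all 8 embryos, and the other Control embryos lay below each TKO-labelled embryo. The log2 difference was 0.36 (95% confidence interval -0.39 to 1.11), 0.71 without Control replicate 3 and 0.18 without Control replicate 4. Control replicate 3 was also the embryo with the most decidual marker RNA, and the part of that tissue in the Crabp1 value was not tested. Crabp2 exceeded Crabp1 in every embryo, by a ratio of RPKM from 2.12 in Control replicate 3 to 10.8 in TKO-labelled replicate 2.

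Rdh10, which oxidises retinol to retinal, was at 13.6, 6.99, 10.8 and 8.15 RPKM in Control and at 10.9, 11.7, 17.2 and 10.6 RPKM in TKO-labelled embryos. The groups overlapped, with TKO-labelled replicate 3 highest and Control replicate 2 lowest. The log2 difference was 0.34 (95% confidence interval -0.12 to 0.79). Dhrs3, the reductase that opposes it, was at 1.35, 1.71, 2.45 and 2.32 RPKM in Control and at 1.91, 2.04, 2.48 and 1.89 RPKM in TKO-labelled embryos. Its difference of 0.07 (95% confidence interval -0.26 to 0.40) became -0.03 without Control replicate 1. Rdh10 was above Dhrs3 in each embryo, by a ratio of RPKM from 3.51 to 10.1.

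Aldh1a2, the main retinoic acid synthesising enzyme of the gastrulating embryo, was the 1 member with a negative difference, and its values split within each group rather than between them. It was at 0.160, 0.0890, 3.54 and 1.47 RPKM in Control and at 0.134, 0.187, 1.34 and 1.09 RPKM in TKO-labelled embryos. In replicates 1 and 2 of both groups these values correspond to an estimated 3.0 to 6.0 reads, and in replicates 3 and 4 to an estimated 28.9 to 99.1 reads. The log2 difference was -0.28 (95% confidence interval -1.24 to 0.69). The labels give no reason for the split, and a replicate number is not stated to mark a litter or batch.

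Decidual markers varied along with Aldh1a2 in most embryos but not in all. Their summed level was 258, 3.90, 569 and 339 RPKM in Control embryos and 44.1, 20.9, 458 and 90.8 RPKM in TKO-labelled embryos. The embryo with the highest Aldh1a2 level, Control replicate 3, had the highest decidual sum, and the lowest for both was Control replicate 2. Control replicate 1 went against this, with a decidual sum of 258 RPKM and Aldh1a2 at 0.160 RPKM, below TKO-labelled replicate 4 with 90.8 and 1.09 RPKM. Prl8a2, the decidual prolactin, made up the largest part of the decidual sum in each embryo, so its values are not separate from that sum. It was at 174, 1.32, 336 and 209.8 RPKM in Control and at 21.3, 11.8, 354 and 45.2 RPKM in TKO-labelled embryos. Of the 10 decidual markers 0 were at 0 in all embryos, and 1 stayed under 1 RPKM throughout. Mesoderm markers did not rank the embryos as Aldh1a2 did: the streak and mesoderm list was highest in TKO-labelled replicate 2, at 128 RPKM against 24.1 to 40.3 RPKM in the others, where T, the streak gene Brachyury, reached 34.0 RPKM and Aldh1a2 was at 0.187 RPKM. The part of the decidua in the Aldh1a2 values was not tested further.

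**Figure D2:**
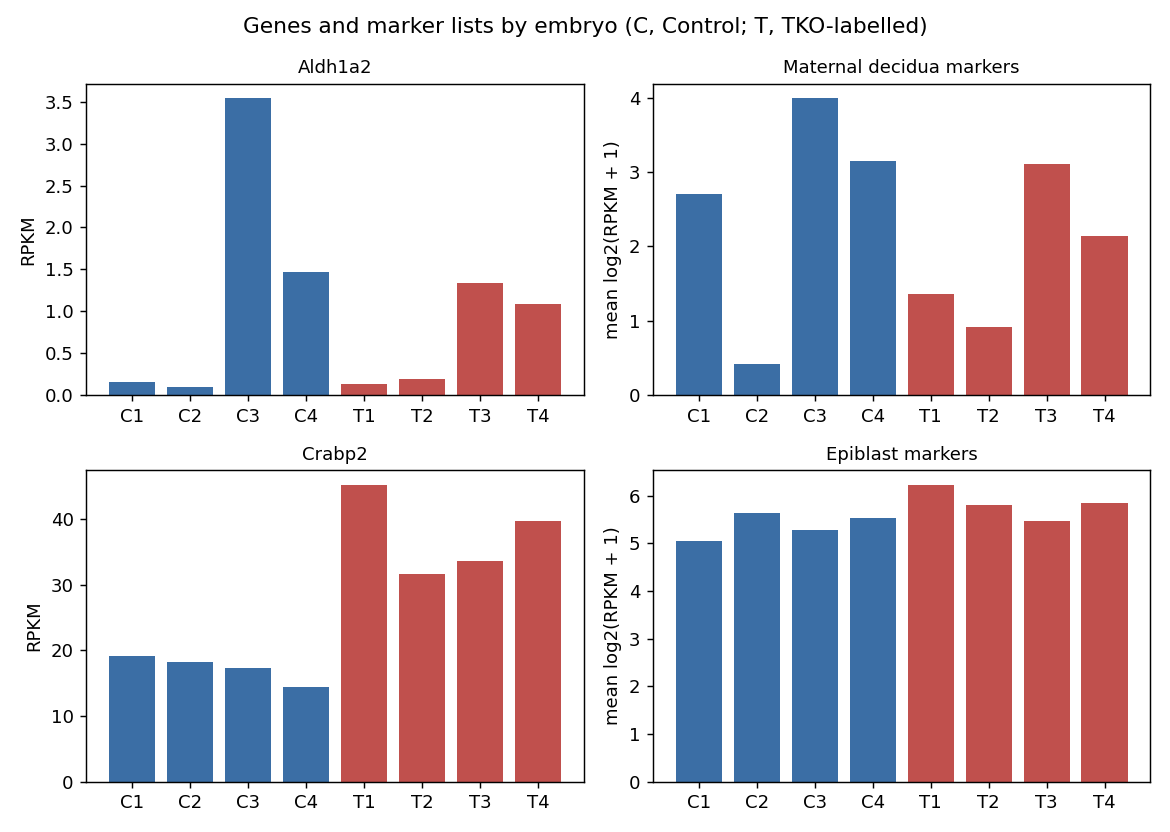
Bars give, for each Control (C1 to C4) and TKO-labelled (T1 to T4) embryo, RPKM of Aldh1a2 and Crabp2 (left) and the mean log2(RPKM + 1) of the maternal decidua and epiblast marker lists (right). Aldh1a2 and the decidual mean are both highest in C3 and lowest in C2, and Crabp2 is higher in each of T1 to T4 than in C1 to C4.

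Cyp26a1, the retinoic acid hydroxylase, had the highest mean of the 9 in both groups. It was at 70.0, 47.8, 45.8 and 49.8 RPKM in Control and at 90.7, 63.1, 59.3 and 58.1 RPKM in TKO-labelled embryos. Control replicate 1 lay among the TKO-labelled embryos, and the other 3 Control embryos lay below all of them. The log2 difference was 0.34 (95% confidence interval -0.05 to 0.72), 0.47 without Control replicate 1 and 0.19 without TKO-labelled replicate 1. Without Control replicate 1, 3 of the 9 genes had groups that did not overlap, Crabp2, Rbp4 and Cyp26a1, all higher in TKO-labelled embryos, against 13.4% of the genes tested in that setting. Without Control replicate 3 there were 2, Crabp1 and Crabp2, against 9.57%. Leaving out any other embryo left 1, Crabp2, against 8.28% to 13.0%. The added genes are those in which the embryo left out was the only one to overlap, so this outcome was fixed. Nothing is read from these counts. Cyp26a1 exceeded Aldh1a2 in every embryo, by a ratio of RPKM from 12.9 in Control replicate 3 to 677 in TKO-labelled replicate 1. The other hydroxylase genes were low in both groups, Cyp26b1 at 0 to 0.132 RPKM and Cyp26c1 at 0.215 to 0.777 RPKM over the 8 embryos.

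Rarg, the retinoic acid receptor gamma gene, was at 1.19, 1.98, 2.44 and 2.58 RPKM in Control and at 4.77, 1.93, 1.81 and 1.99 RPKM in TKO-labelled embryos. TKO-labelled replicate 1 stood apart from the other 3, which lay inside the Control range. The log2 difference of 0.21 (95% confidence interval -0.34 to 0.75) was -0.04 without that embryo. The same embryo was highest of the 8 in Crabp2 and Cyp26a1, second to Control replicate 3 in Crabp1, and highest in the epiblast marker sum, at 903 RPKM. Its estimated read total, 9.90 M, was the lowest of the 8.

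The order of mean levels in Control was Cyp26a1 (53.3 RPKM), Rbp4 (31.6), Crabp2 (17.3), Rdh10 (9.88), Crabp1 (3.94), Rarg (2.05), Dhrs3 (1.96), Aldh1a2 (1.31) and Stra6 (0.686). Among neighbours in that order, the ranges of Rbp4 and Crabp2 and of Crabp2 and Rdh10 did not overlap, and all other neighbours did. In TKO-labelled embryos the order was the same except that Stra6 (0.837 RPKM) stood above Aldh1a2 (0.688 RPKM), with overlapping ranges. There the ranges of Rdh10 and Crabp1 and of Dhrs3 and Stra6 were also apart. Against all tested genes, the mean of Cyp26a1 over the 8 embryos lay at the 88.2 percentile, Rbp4 at 84.9, Crabp2 at 77.4 and Aldh1a2 at 0.9. The relative spread within Control was widest for Aldh1a2, with a coefficient of variation of 122.6%, and narrowest for Crabp2, at 12.1%.

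**Figure D3:**
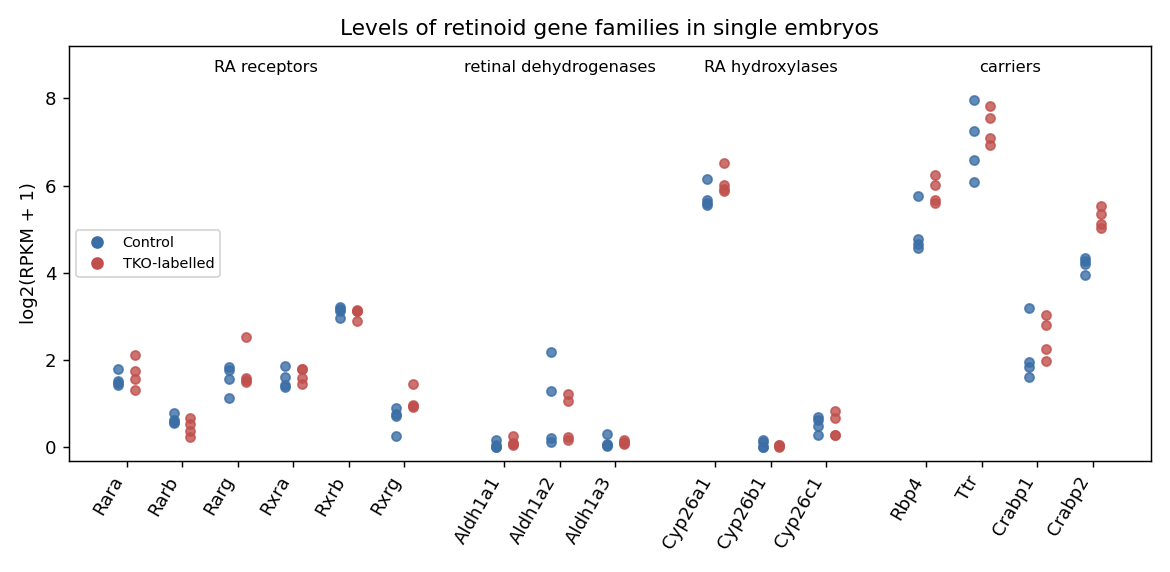
Levels on the log2(RPKM + 1) scale (vertical axis) of retinoic acid (RA) receptors, retinal dehydrogenases, RA hydroxylases and carriers, 1 point per embryo. Cyp26a1 is the hydroxylase with levels far above 0, Aldh1a2 is the dehydrogenase with any value above 1 RPKM, and Rxrb is the highest of the 6 receptors.

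The rest of the pathway was taken from a list of 41 other retinoid genes, of which 20 passed the filter and 19 stayed under 1 RPKM in every embryo. Of the 20, 0 rose and 0 fell past the adjusted threshold (limma), and 1 had an unadjusted p under 0.05, against 17.5% of all tested genes. Their median log2 difference was 0.10, beside 0.09 for all tested genes. Nrip1, a corepressor of nuclear receptors, had the smallest p, with 1.69 to 2.18 RPKM among Controls, 2.36 to 2.53 RPKM among TKO-labelled embryos, and a log2 difference of 0.27 (limma adjusted p = 0.261). Its groups did not overlap, nor did those of the coactivator gene Ncoa2 (0.18, limma adjusted p = 0.383). These were 2 of the 20, both higher in TKO-labelled embryos, beside 7.55% of all tested genes, and nothing is read from them. Dhrs4, a retinal reductase, had a difference of 0.25 (limma adjusted p = 0.421), and Bcmo1, the older symbol of Bco1, which cleaves carotene to retinal, one of -0.33 (limma adjusted p = 0.474).

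Among the receptors, Rxrb, a heterodimer partner of the retinoic acid receptors, had the highest level, at 6.83 to 8.30 RPKM in Control and at 6.42 to 7.92 RPKM in TKO-labelled embryos. Rara and Rxra lay near Rarg, with Control means of 1.96 and 2.01 RPKM and log2 differences of 0.13 and 0.08 (limma adjusted p = 0.731 and 0.797). That of Rara became -0.02 without TKO-labelled replicate 1, where it was highest, at 3.32 RPKM. Rarb, whose promoter holds the repeat shown above, was under 1 RPKM in each embryo, with means of 0.561 ± 0.114 RPKM among Controls and 0.387 ± 0.183 RPKM among TKO-labelled embryos (SD, n = 4 each, exact permutation p = 0.200).

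The genes of the pathway and target lists that missed the filter, 31 in all, were tested by exact two-sided permutation of the 8 embryos, in 70 assignments, where 0.0286 is the smallest p possible. After Benjamini-Hochberg adjustment over the 31, 0 passed. Rxrg, a retinoid X receptor gene, and Lrat, which esterifies retinol for storage, reached 0.0286 before adjustment and 0.443 after it by this exact test, and are named after their values were seen. Rxrg was at 0.205, 0.651, 0.712 and 0.883 RPKM in Control and at 0.938, 1.73, 0.909 and 0.972 RPKM in TKO-labelled embryos. Lrat was at 0.0450, 0.0620, 0.314 and 0.130 RPKM in Control, highest in replicate 3 with its high decidual sum, and at 0 to 0.0290 RPKM in TKO-labelled embryos. The other retinal dehydrogenase genes were near 0, Aldh1a1 at 0 to 0.198 RPKM and Aldh1a3 at 0.02 to 0.235 RPKM over the 8 embryos.

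**Figure D4:**
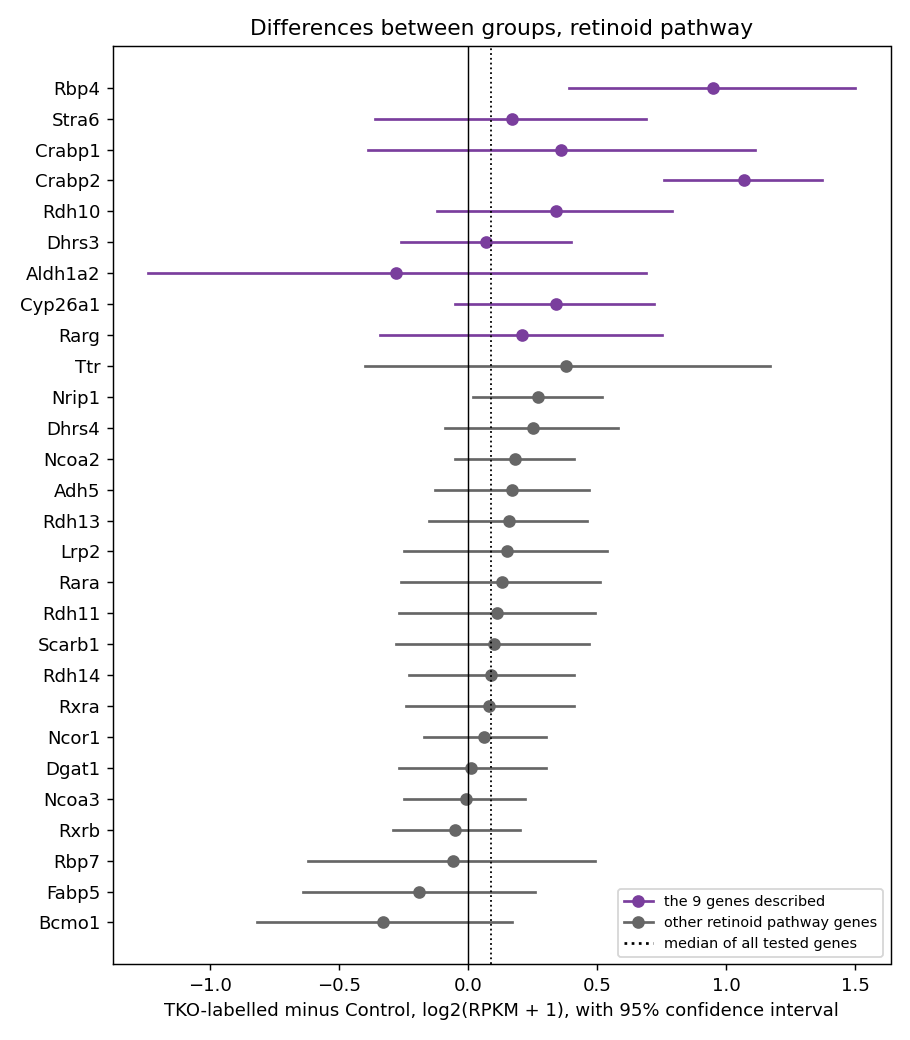
Log2 difference between TKO-labelled and Control embryos on the log2(RPKM + 1) scale (horizontal axis), with 95% confidence intervals from the fit across all genes, for the 9 genes and other tested retinoid genes. Crabp2 (1.07) and Rbp4 (0.95) lie to the right, and the other pathway genes plotted lie between -0.33 and 0.38 around the dotted median of all tested genes, 0.09.

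The listed genes known to be induced by retinoic acid were mostly at low levels in these embryos. The list leaves out the targets Cyp26a1 and Rarb, which were counted with the members and the other pathway genes. Of these, Cyp26a1 was at 45.8 to 90.7 RPKM. Of 15 in the list, 5 passed the filter and 8 stayed under 1 RPKM in every embryo. Among the 5, 0 rose and 0 fell past the adjusted threshold, 0 had an unadjusted limma p under 0.05, and the median log2 difference was -0.01. The transcription factor genes Bhlhe40 and Meis1 had differences of -0.23 and 0.14 (limma adjusted p = 0.618 and 0.756). Hoxb1 was at 0.0320 to 0.117 RPKM in Control and at 0, 0.678, 0.05 and 0.0410 RPKM in TKO-labelled embryos, with the highest value in replicate 2, the embryo with the most streak and mesoderm marker RNA.

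Genes whose embryo-to-embryo pattern was most like that of Crabp2 and Rbp4 were taken as those with the highest Pearson correlation of log2(RPKM + 1) over the 8 embryos, after the mean of each group was subtracted. For Crabp2 these were Alkbh2, a DNA repair enzyme gene, Rcor3, Tcf19, Ppp2r5d and Wipi2, with correlations of 0.986 down to 0.965. For Rbp4 they were Ddc, the gene of aromatic amino acid decarboxylase, Map2k6, Dcaf12l1, Slc35c1 and Pik3c3, with 0.967 down to 0.946. These are the closest of 10450 genes over 8 libraries and serve as a description.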

How the data were processed

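RPKM values were computed by the authors and deposited as 1 table with 1 column per embryo. The unit is read from the table's name and its fractional values. Per the submitters' processing notes, HTSeq and build mm9 were used. The aligner, annotation, strand use and RPKM denominator were not given in the sources used here. The labels describe single embryos, so p-values cover the spread between these 8. Reads were not recovered: at the estimated read totals 47.3% to 55.7% of low values (0.03 to 1 RPKM, genes with 1 GENCODE M21 transcript) came out at 1 to 10 whole reads within 2%, so no count test was run. Estimated reads used the longest GENCODE transcript.

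Groups were compared with limma 3.58.1 in R 4.3.3 (eBayes with trend) on log2(RPKM + 1), for genes with at least 1 RPKM in at least 4 embryos, two-sided, with Benjamini-Hochberg adjustment over 10451 genes and a threshold of 0.05. The log2(RPKM + 1) scale understates changes of low genes. The fit was tested on simulated data. The members and lists were chosen with earlier results of these data known. Named genes were all members, the 4 with the smallest p per list, and preset carriers, enzymes and receptors, of which some are not reported here. Alternatives were a pseudocount of 0.1, other filters (none, or 5 RPKM), median-ratio scaling, a replicate block and leaving out each embryo. Hbb-b1 and Hba-a1 of the blood list were not matched; Bco1 and Tfap2c were matched by older symbols. Summed levels of the lists not described above were, in Control and TKO-labelled embryos, 89.7 to 138 and 93.9 to 121 RPKM (extraembryonic ectoderm), 15.0 to 31.3 and 6.41 to 129 (ectoplacental cone and giant cells) and 0.328 to 28.2 and 0.247 to 20.3 (blood, 3 genes).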

Additional observations from a re-analysis of the deposited data

Results flagged for a closer look

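In the groups of 4 embryos of the named genes, 54 were checked for a single embryo far from the others (by the gap to its nearest neighbour over the group's range), and 8 passed. The cut-off gives about 1 in 20 by chance for independent, normally distributed values. These RPKM values come from related genes in the same 8 embryos, some of them near 0. The check therefore cannot show an excess over chance, and the 8 are listed as a description. In Control, replicate 1 was high in Rbp4 (52.9 RPKM against 22.7 to 26.3) and Cyp26a1 (70.0 against 45.8 to 49.8), and replicate 3 in Crabp1 (8.21 against 2.06 to 2.89) and Aldh1a3 (0.235 against 0.02 to 0.0530). Among TKO-labelled embryos, replicate 1 was high in Cyp26a1 (90.7 RPKM against 58.1 to 63.1) and Rarg (4.77 against 1.81 to 1.99), replicate 3 in Rdh10 (17.2 against 10.6 to 11.7), and replicate 2 in Hoxb1 (0.678 against 0 to 0.05).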

How the results depend on the processing

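The number of genes past the threshold (limma), 1 as reported, was 0 with no filter, 2 with the stricter filter, 0 with the replicate block and 0 to 36 when 1 embryo was left out, with 36 reached without TKO replicate 1. At an unadjusted p under 0.05 there were 2411 genes with no filter and 1905 with the block. Median-ratio scaling moved the share of higher values among genes at that p from 79.4% to 55.5%. Members whose groups did not overlap numbered 1 to 3 when 1 embryo was left out, against 10.6% to 16.7% of the genes tested in those settings. Leaving out an embryo can only narrow a group's range, so this number could not fall below 1. The other pathway genes tested (20 as reported, 12 with the stricter filter, all 41 with no filter) and the target genes tested (5 as reported, 1 to 15 over the alternatives) held 0 calls under the 13 alternatives. No median of the target genes was taken with the stricter filter, which left 1 of them. Of 104 member differences under alternatives, 103 moved by less than 1 SD between embryos. The exception was Stra6 with the pseudocount of 0.1 (0.57). Most of the 104 could not have moved by that much. The other filters and the replicate block left the member differences unchanged, and leaving out an embryo shifts a group mean by less than 1 SD. Only the pseudocount and the median-ratio scaling could have failed this check, so the 103 do not show stability. Same-numbered embryos deviated together with correlations of -0.00, 0.40, 0.26 and -0.02, so the numbers were not taken as pairs. The cause of these changes was not tested. The lowest values of Stra6 and Aldh1a2 rest on an estimated 3.4 and 3.0 reads.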
